A study of Mus musculus with 17 samples.

Results

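Leukocytes leave the blood by rolling on, and then adhering to, the endothelium, and 5 genes of these steps were followed in glomeruli-enriched kidney cortex of mice. Sele and Selp encode E-selectin and P-selectin, the endothelial lectins that capture rolling leukocytes. Selplg encodes PSGL-1, the mucin on leukocytes that selectins bind. Vcam1 and Icam1 encode immunoglobulin-family adhesion molecules, which leukocyte integrins bind for firm adhesion. The genes were chosen by symbol and are 5 of the 53379 genes in the count table, and all 5 passed the filter on low counts. Messenger RNA was sequenced from 17 mice of the BTBR strain in 3 groups, 1 library per mouse. Wild type BTBR mice (n = 5) had no treatment named in the labels. The ob/ob mice, which lack working leptin through the ob allele of Lep and become obese and diabetic on this strain, received saline (n = 5) or atrasentan (n = 7). Atrasentan is an antagonist of the endothelin A receptor, given in the drinking water at 5 mg per kg per day. Both ob/ob groups were treated from 18 to 24 weeks of age, and wild type mice were killed at the same age. The genotype labels read WT-d30, ob/ob-d30 (saline) and BTBR ob (atrasentan), with no meaning given for d30. All libraries carry the same batch label. The library numbers follow the groups, so order and group cannot be told apart.

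As background, E-selectin is made by endothelium after cytokines such as TNF and interleukin-1 activate the transcription factor NF-kB. P-selectin is stored ready-made in the granules of endothelial cells and platelets. VCAM-1 is bound by the integrin VLA-4 on monocytes and lymphocytes, and ICAM-1 by the beta-2 integrins LFA-1 and Mac-1. In the kidney, VCAM-1 and ICAM-1 are also made by mesangial and tubular epithelial cells.

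Sele (ENSMUSG00000026582.6) lies on the plus strand of chromosome 1 at 164048234 to 164057677 in GRCm38, and Selp (ENSMUSG00000026580.16) follows on the same strand at 164115264 to 164150026. Selplg (ENSMUSG00000048163.13) is on the minus strand of chromosome 5 at 113818536 to 113832644. Vcam1 (ENSMUSG00000027962.14) is on the minus strand of chromosome 3 at 116109949 to 116129688, and Icam1 (ENSMUSG00000037405.8) on the plus strand of chromosome 9 at 21015985 to 21028817. All 5 are protein-coding in the GENCODE M21 annotation. Antisense genes share exon bases with Selp (Gm16587, 186 bases, and Gm16548, 438 bases), Vcam1 (Gm43109, 61 bases) and Icam1 (Gm47079, 511 bases). These antisense genes had at most 9 reads in any library, and reads on the shared bases cannot be assigned to a strand with this kit.

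The promoters of Sele and Icam1 are shown because Sele was the member called between saline and wild type and Icam1 had the smallest adjusted p of the members in both comparisons with atrasentan. Both are known targets of NF-kB. Each window runs from 250 bases before the RefSeq start site to 30 bases after it, on the plus strand of GRCm38.p6, at chr1:164047984-164048263 for Sele and chr9:21015690-21015969 for Icam1. Capitals mark matches to an NF-kB-like motif (GGNNNTTCC), an AP-1-like motif (TGANTCA) or a TATA box (TATAAA) on either strand. The motifs were chosen after the sequences were seen.
Sele promoter: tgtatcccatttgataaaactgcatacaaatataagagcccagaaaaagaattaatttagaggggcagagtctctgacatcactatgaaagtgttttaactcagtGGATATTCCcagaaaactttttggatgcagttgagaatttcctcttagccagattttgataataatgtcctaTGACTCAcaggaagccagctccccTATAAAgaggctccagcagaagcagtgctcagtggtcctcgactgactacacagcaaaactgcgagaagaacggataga
Icam1 promoter: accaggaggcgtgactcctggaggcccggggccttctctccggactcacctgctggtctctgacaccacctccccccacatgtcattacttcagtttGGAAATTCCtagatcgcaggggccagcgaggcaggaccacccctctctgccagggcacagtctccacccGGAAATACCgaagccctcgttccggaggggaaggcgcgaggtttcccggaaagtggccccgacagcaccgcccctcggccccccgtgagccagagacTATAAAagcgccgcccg
In Sele, the NF-kB-like match begins 145 bases before the RefSeq start, the AP-1-like match 73 bases before it and the TATA box 49 bases before it. In Icam1, NF-kB-like matches begin 153 and 84 bases before the start, and the TATA box begins at position 14 after it. The GENCODE start of Icam1 lies 45 bases downstream of the RefSeq start. Of 32851 RefSeq promoter windows of the same length, 17.4% held the NF-kB-like letters, 7.46% the AP-1-like letters and 13.1% the TATA box. A match describes letters and not a bound site. Selplg and Vcam1 had no such window. The Selp window, not printed here, held an NF-kB-like match beginning 14 bases before the RefSeq start and an AP-1-like match 139 bases before it. Every member with a window thus held the NF-kB-like letters, but these were chosen after the sequences were seen, so this tests nothing.

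Gene reads ran from 29161833 to 52528747 per library. Atrasentan libraries had between 21396 and 23081 genes with a read, and the other libraries between 23901 and 25313. In atrasentan libraries 3.17% to 5.65% of reads fell outside genes, against 5.95% to 8.58% in the others. Lep had 0 to 1 reads in every library, so it does not check the labels. Podocyte markers and endothelial markers were present in all groups. Proximal tubule markers summed to between 1589 and 3496 CPM (gene reads scaled to a common library size) in wild type, 2782 to 13625 with saline and 278 to 2501 with atrasentan. Podocyte markers summed to 9304 to 14762, 5213 to 10347 and 2623 to 5744 CPM in the same order. In bulk tissue, fewer cells of a type and less RNA per cell cannot be told apart. Levels below are CPM over library sizes scaled by the trimmed mean of M-values (TMM), and log2 differences, standard errors (SE) and adjusted p come from edgeR's quasi-likelihood test with Benjamini-Hochberg adjustment over 17766 genes. A gene was called at an adjusted p under 0.05.

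**Figure D1:**
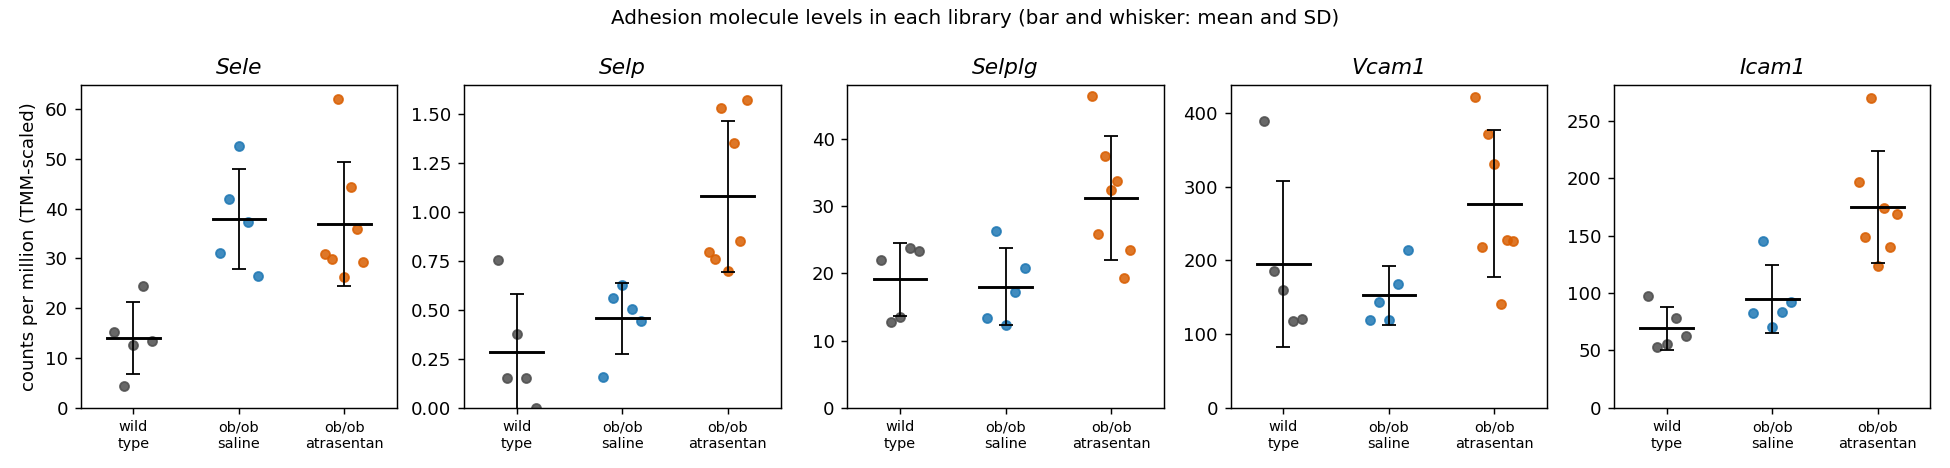
CPM of each of the 5 genes (vertical axes) in each library by group. Points are mice, and bars are group means with SD (the wild type Selp bar is cut at 0). Sele separates wild type from both ob/ob groups, and Icam1 separates the atrasentan group from wild type. Of all genes, 3.46% lay wholly above wild type with saline and 6.16% with atrasentan.

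Sele, the gene of E-selectin, was the member that passed the test between saline-treated ob/ob and wild type mice. In wild type mice 1 to 5, Sele measured 15.3, 4.31, 12.7, 24.5 and 13.5 CPM, a mean of 14.04 ± 7.20 (SD, n = 5). In saline-treated mice 1 to 5 it measured 31.1, 42.0, 52.7, 37.3 and 26.6 CPM, a mean of 37.9 ± 10.1 (SD, n = 5). No saline value overlapped a wild type value. Sele was higher by 1.43 ± 0.33 (SE) on the log2 scale, a fold of 2.70 (adjusted p = 0.0251, edgeR, Benjamini-Hochberg). In this comparison 5.12% of all genes were called, 3.21% upward, and 3.46% of genes had every saline value above every wild type value. Of the 5 members, 1 was called.

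DESeq2 and limma-voom also called Sele between saline and wild type (adjusted p = 0.000978 and 0.0214). With 1 library left out, the Sele call held in 13 of 17 fits and was lost in 4, although the difference stayed between 1.20 and 1.73. Its adjusted p (edgeR) was 0.0761 without saline library 3, 0.0518 without wild type library 1, 0.0632 without wild type library 3 and 0.0675 without wild type library 5. Saline libraries 1 and 3 had the lowest podocyte against proximal tubule marker difference (-1.45 and -1.40 on the log2 scale) and were singled out in an earlier analysis of these data. Without both, Sele was higher by 1.32 (adjusted p = 0.152, edgeR). With the podocyte minus proximal tubule marker difference as a covariate, it was higher by 1.08 (adjusted p = 0.471, edgeR). Under this covariate, calls over all genes fell from 570 higher and 340 lower to 1 and 5. Marker means partly follow the groups, so here and below a call lost with one assigns no part to those cells.

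Sele did not differ detectably between atrasentan and saline. In the 7 atrasentan mice its lowest, median and highest values were 26.4, 30.9 and 62.0 CPM, a mean of 37.0 ± 12.5 (SD, n = 7). The ranges of the atrasentan and saline mice overlapped. The log2 difference was -0.04 ± 0.30 (SE; 95% interval -0.67 to 0.60, adjusted p = 0.936, edgeR). Against wild type, all 7 atrasentan mice were above the highest wild type mouse, as in 6.16% of all genes, and Sele was higher by 1.40 ± 0.32 (SE; adjusted p = 0.00334, edgeR). Both ob/ob groups are compared with the same wild type mice, so these comparisons share their controls. Leaving out any 1 of the 17 libraries kept the call between atrasentan and wild type. It was lost with the endothelial marker mean as a covariate (1.20, adjusted p = 0.157) or the leukocyte marker mean (0.91, adjusted p = 0.105). Calls over all genes in this comparison also fell, from 2619 higher and 2571 lower. They became 820 and 584 with the first covariate and 1337 and 1240 with the second.

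Selp, the gene of P-selectin, was the member with the lowest level and was near the limit of counting. In wild type mice 1 to 5, Selp measured 0.753, 0.151, 0.379, 0.152 and 0 CPM, from 0 to 34 reads, a mean of 0.287 ± 0.294 (SD, n = 5). A count of 0 in wild type mouse 5 allows up to 3 reads, or 0.0884 CPM, by counting error alone. In saline mice 1 to 5 it measured 0.158, 0.559, 0.625, 0.505 and 0.442 CPM from 6 to 22 reads, a mean of 0.458 ± 0.181 (SD, n = 5). Saline and wild type values overlapped. With atrasentan the lowest, median and highest values were 0.700, 0.854 and 1.57 CPM from 28 to 68 reads, a mean of 1.08 ± 0.386 (SD, n = 7). Every atrasentan mouse was above every saline mouse, which held for 6.07% of all genes in that comparison.

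The saline against wild type difference in Selp was 0.64 ± 0.62 (SE; adjusted p = 0.619, edgeR). The atrasentan against saline difference was 1.23 ± 0.57 (SE) and did not pass the test (adjusted p = 0.0997, edgeR). It did pass when only these 2 groups were fitted (adjusted p = 0.0261), when wild type library 5 was left out (adjusted p = 0.0390), and in limma on the authors' deposited normalized table (0.42, adjusted p = 0.0186). Against wild type, Selp with atrasentan was higher by 1.87 ± 0.59 (SE; adjusted p = 0.0239, edgeR). This call was lost without wild type library 2 (1.71, adjusted p = 0.0571) or wild type library 4 (1.71, adjusted p = 0.0606), and with the endothelial (1.46, adjusted p = 0.421) or leukocyte marker mean (1.72, adjusted p = 0.171) as a covariate. Platelets also hold P-selectin. Platelet markers summed to 12.7 to 20.7 CPM in wild type, 15.3 to 29.7 with saline and 32.0 to 80.5 with atrasentan, and 6 of the 8 genes rose with atrasentan against saline (edgeR). Their part in the Selp result was not tested.

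Selplg, the gene of PSGL-1, showed no detectable difference between saline and wild type and was higher with atrasentan. Selplg measured 22.0, 12.8, 13.5, 23.8 and 23.3 CPM in wild type mice 1 to 5, a mean of 19.1 ± 5.48 (SD, n = 5), and 13.4, 26.3, 12.3, 17.2 and 20.7 CPM in saline mice 1 to 5, a mean of 18.0 ± 5.71 (SD, n = 5). With atrasentan the lowest, median and highest values were 19.3, 32.4 and 46.3 CPM, a mean of 31.2 ± 9.21 (SD, n = 7). The groups overlapped, with 4 of 7 atrasentan mice above the highest saline mouse and 5 of 7 above the highest wild type mouse. The saline against wild type difference was -0.08 ± 0.26 (SE; 95% interval -0.62 to 0.45, adjusted p = 0.897, edgeR). Against saline, Selplg rose by 0.79 ± 0.24 (SE; adjusted p = 0.0180, edgeR), and against wild type by 0.71 ± 0.24 (SE; adjusted p = 0.0339). In the atrasentan against saline comparison 33.8% of genes were called, 15.3% upward. In the atrasentan against wild type comparison 29.2% were called, 14.7% upward. Of the 5 members, 3 rose against saline and 4 rose against wild type.

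Leukocyte markers moved with Selplg. General leukocyte markers summed to 244 to 456 CPM in wild type, 254 to 437 with saline and 432 to 894 with atrasentan, and 8 of 10 rose with atrasentan against saline (edgeR). Relative to the mean log2 CPM of those markers, Selplg stood at -0.58 in wild type, -0.60 with saline and -0.64 with atrasentan. With this leukocyte mean as a covariate, the atrasentan difference was -0.05 against saline (adjusted p = 0.891) and -0.05 against wild type (adjusted p = 0.900). With the endothelial or the podocyte minus proximal tubule marker mean as a covariate, Selplg against saline was 0.34 or 0.50 (adjusted p = 0.658 and 0.367). Against saline, 10 of 12 macrophage markers and 1 of 6 tested neutrophil markers rose, and against wild type 9 of 12 and 4 of 6 (edgeR). For neutrophil markers limma-voom called 0 in both comparisons, and DESeq2 called 1 and 4. Of 11 T, B and NK cell markers, 4 rose against saline and 1 against wild type (edgeR). Of the 10 general markers, 5 rose against wild type. Atrasentan library 3 held 241 CPM of neutrophil markers, and the other atrasentan libraries between 10.7 and 56.7 CPM. Neutrophil markers summed to 188 CPM in saline library 2 and to between 7.30 and 30.9 CPM in the other saline libraries. Left out one at a time, saline library 1 or 3 ended the call against saline (adjusted p = 0.0548 and 0.0559). Atrasentan libraries 1, 3 and 4 and wild type libraries 2 and 3 ended the call against wild type (adjusted p = 0.0723, 0.0595, 0.0504, 0.0874 and 0.0959, edgeR).

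Vcam1, the gene of VCAM-1, was higher with atrasentan than with saline, and 1 wild type mouse lay far above the rest of its group. Vcam1 measured 389.9, 186, 159.9, 117 and 121 CPM in wild type mice 1 to 5, a mean of 195 ± 113 (SD, n = 5), and 119, 143, 119, 168 and 214 CPM in saline mice 1 to 5, a mean of 153 ± 40.1 (SD, n = 5). With atrasentan the lowest, median and highest values were 141, 228 and 421 CPM, a mean of 277 ± 99.6 (SD, n = 7). Saline and wild type values overlapped, and 6 of 7 atrasentan mice were above the highest saline mouse. Against saline, Vcam1 rose by 0.86 ± 0.31 (SE; adjusted p = 0.0388, edgeR). Saline against wild type gave -0.35 ± 0.32 (SE; adjusted p = 0.594), and atrasentan against wild type gave 0.51 ± 0.30 (SE; adjusted p = 0.221).

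Mesangial and smooth muscle markers summed to 5159 to 6851 CPM in wild type, 5745 to 7931 with saline and 8015 to 13903 with atrasentan. The sums of atrasentan and saline did not overlap, but Serpine2 made up much of them, with means of 3429 CPM with saline and 6558 with atrasentan. On the mean log2 CPM of the same genes the ranges overlapped, at 7.58 to 8.04 with saline and 7.65 to 8.59 with atrasentan. Of these 11 genes, 5 rose with atrasentan against saline (edgeR), and their part in the Vcam1 and Icam1 results was not tested. The Vcam1 calls changed with single libraries. Leaving out saline library 1, 2, 3 or 4, or atrasentan library 1, 3 or 4, ended the call against saline, with differences from 0.73 to 0.90 and adjusted p from 0.0541 to 0.0970 (edgeR). Without wild type library 1, the difference against wild type was 0.92 and passed the test (adjusted p = 0.0164), and saline against wild type became 0.06. With the endothelial, the leukocyte and the podocyte minus proximal tubule marker means as covariates, the difference against saline was 1.29, 0.32 and 0.26 (adjusted p = 0.149, 0.641 and 0.733).

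Icam1, the gene of ICAM-1, was higher with atrasentan than in either other group. Icam1 measured 97.9, 52.7, 55.9, 78.5 and 62.5 CPM in wild type mice 1 to 5, a mean of 69.5 ± 18.7 (SD, n = 5), and 82.8, 146, 70.4, 83.3 and 92.1 CPM in saline mice 1 to 5, a mean of 94.8 ± 29.4 (SD, n = 5). With atrasentan the lowest, median and highest values were 124, 169 and 271 CPM, a mean of 175 ± 48.7 (SD, n = 7). Every atrasentan mouse was above every wild type mouse, as in 6.16% of all genes, and 5 of 7 were above the highest saline mouse, number 2. Icam1 rose by 1.33 ± 0.22 (SE) against wild type, a fold of 2.52 (adjusted p = 0.000275, edgeR), and by 0.88 ± 0.21 (SE) against saline, a fold of 1.84 (adjusted p = 0.00495). Saline against wild type gave 0.45 ± 0.23 (SE; 95% interval -0.03 to 0.92, adjusted p = 0.265). The calls held without any 1 of the 17 libraries.

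Endothelial markers were also higher with atrasentan, by a median log2 difference of 0.45 against saline and 0.41 against wild type. They summed to 15525 to 17501 CPM in wild type, 14076 to 19320 with saline and 20217 to 26907 with atrasentan, and 14 of 20 rose with atrasentan against saline while 0 of 20 were called between saline and wild type (edgeR). DESeq2 and limma-voom also called 0 there, and at an unadjusted p under 0.05 there were 2 rising and 1 falling. Relative to the endothelial marker mean, Icam1 stood at -2.83 ± 0.38 in wild type, -2.43 ± 0.22 with saline and -1.99 ± 0.38 with atrasentan (log2, SD). Sele stood at -5.29 ± 0.89, -3.74 ± 0.41 and -4.25 ± 0.45 in the same order. With the endothelial mean as a covariate, Icam1 was higher by 0.49 against saline (adjusted p = 0.429) and by 0.86 against wild type (adjusted p = 0.111). Neither call held. That mean ran from 9.25 to 9.61 with atrasentan, 8.71 to 9.31 with saline and 8.84 to 9.03 in wild type (log2). It thus partly follows the groups, and its part in the Icam1 result was not tested. Calls over all genes also fell, from 2713 higher and 3288 lower to 201 and 208 against saline. Against wild type they fell from 2619 and 2571 to 820 and 584. With the leukocyte mean or the podocyte minus proximal tubule difference, the value against saline was 0.33 or 0.76 (adjusted p = 0.392 and 0.128). Against wild type the Icam1 call held under both, at 0.83 and 1.34 (adjusted p = 0.0238 and 0.000230). Without saline libraries 1 and 3, its difference against saline was 0.71 (adjusted p = 0.0719, edgeR).

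**Figure D2:**
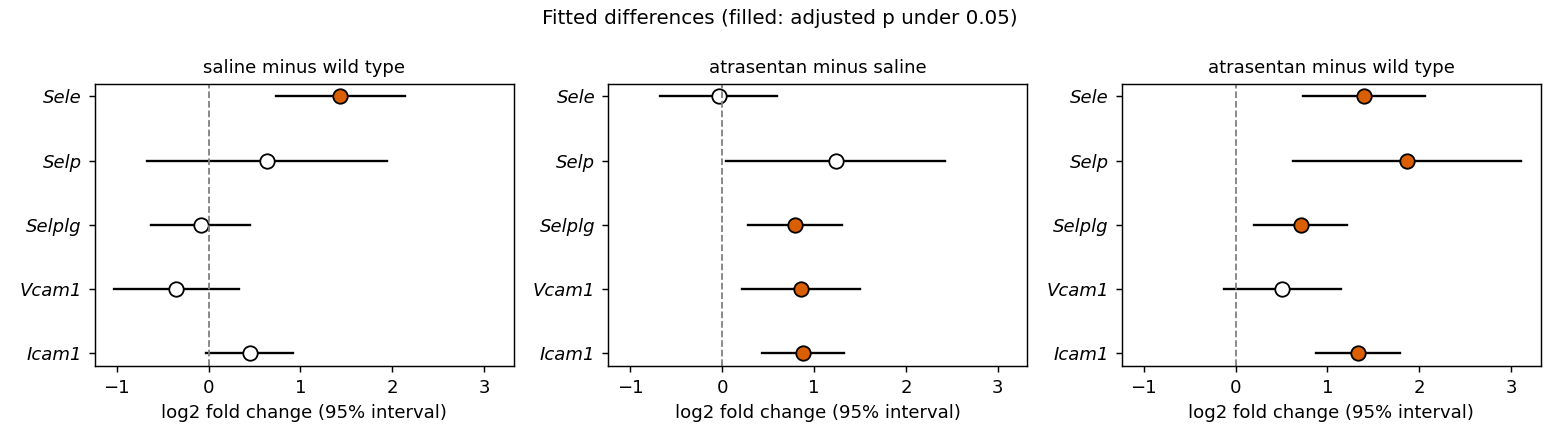
Log2 difference of each gene in the 3 comparisons, with 95% intervals, on the horizontal axis. Filled points had an adjusted p under 0.05. Sele is called in both comparisons with wild type and lies at -0.04 between atrasentan and saline, where Icam1, Vcam1 and Selplg are called.

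**Figure D3:**
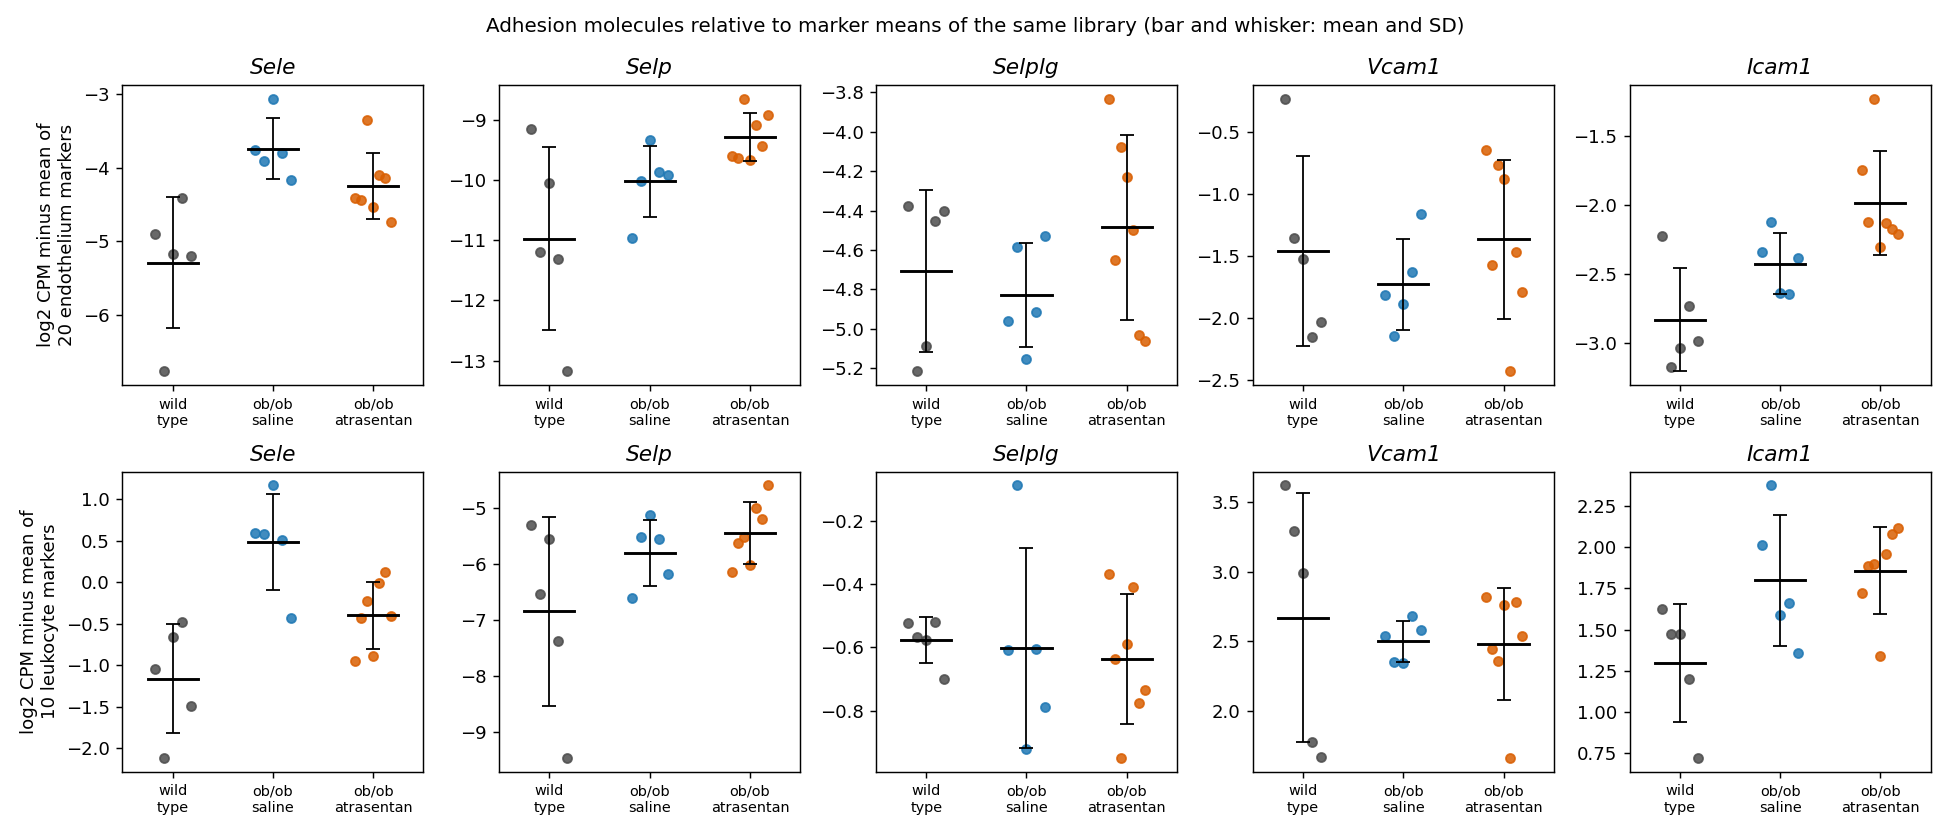
Log2 CPM of each gene minus the mean log2 CPM of 20 endothelial markers (top) or 10 leukocyte markers (bottom), by mouse and group; bars are means with SD. Selplg lies at a similar distance from the leukocyte mean in all 3 groups (-0.58, -0.60 and -0.64), and Icam1 moves from -2.83 to -1.99 against the endothelial mean.

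Per length of exons, Vcam1 and Icam1 had the highest means of the members in every group and Selp the lowest. In FPKM (reads scaled by depth and by the length of the union of exons), wild type had Vcam1 at 22.0, Icam1 at 15.9, Sele at 4.82, Selplg at 4.47 and Selp at 0.065. Saline-treated mice had Icam1 at 21.8, Vcam1 at 17.2, Sele at 13.02, Selplg at 4.22 and Selp at 0.104. Atrasentan-treated mice had Icam1 at 40.1, Vcam1 at 31.2, Sele at 12.7, Selplg at 7.31 and Selp at 0.245. The ranges of Vcam1 and Icam1 overlapped in every group, so their order was not resolved. Sele and Selplg did not overlap with saline and overlapped in the other groups, whereas Selp was below Selplg in every group.

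In the wider pathway, 3 of 108 tested genes rose and 2 fell between saline and wild type (4.63% called, against 5.12% of all genes). With atrasentan, 40 rose and 9 fell against saline (45.4% called, against 33.8% of all genes), and 46 rose and 8 fell against wild type (50% called, against 29.2%). The 117 symbols of 8 lists cover the selectin ligands and their glycosylation, the leukocyte counter-receptors, other endothelial adhesion molecules, the P-selectin granule, inducing cytokines, NF-kB, other regulators and cytokine-induced genes. Of 17 tested genes for selectin ligands, 1 rose and 1 fell with saline against wild type. They were Gcnt1, which builds the core of the selectin-binding glycan (1.50, adjusted p = 0.0281), and the sialyltransferase St3gal6 (fell by 0.62, adjusted p = 0.0143). Of 15 proximal tubule markers 4 rose and 1 fell in this comparison (edgeR), and their part in the Gcnt1 result was not tested. Of the 10 counter-receptor genes 1 fell, the VLA-4 subunit Itga4 (fell by 0.59, adjusted p = 0.0485), and 1 of 15 cytokine-induced genes rose, the neutrophil chemokine Cxcl2 (1.91, adjusted p = 0.0351). In the P-selectin granule list, Mlph, a myosin adaptor for granules, rose by 0.49 (adjusted p = 0.0350), 1 of 9. Over all 8 lists, the 5 calls of edgeR were 2 in limma-voom and 11 in DESeq2, and between 1 and 9 in edgeR with 1 library left out. In limma-voom the counter-receptor, granule and cytokine-induced lists had 0 calls. The 16 NF-kB, 13 cytokine, 12 regulator and 16 adhesion genes had 0 calls in edgeR, with list medians from -0.08 to 0.22 against 0.01 over all genes. At an unadjusted p under 0.05 the NF-kB list had 1 gene rising, the cytokine list 1 rising and 3 falling, the regulators 3 rising and the adhesion genes 1 rising. DESeq2 called 1 NF-kB gene and 0 in the other 3 of these lists, and limma-voom called 0 in all 4.

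With atrasentan against saline, 6 of 10 counter-receptor genes and 9 of 16 other endothelial adhesion genes rose and none fell in either list (edgeR). At an unadjusted p under 0.05, 0 and 1 fell, and DESeq2 and limma-voom called 0 falls in both. Their median differences were 0.74 and 0.37, against -0.01 over all genes, of which 15.3% were called upward and 18.5% downward. With the endothelial, leukocyte or podocyte minus proximal tubule marker means as a covariate, the 49 calls over all lists became 4, 8 and 4, and without saline libraries 1 and 3 they became 19. Calls over all genes also fell, from 2713 higher and 3288 lower to 201 and 208, 612 and 768, and 450 and 634. Without those saline libraries they were 1015 and 1562. Counter-receptors included Fermt3, the kindlin that activates leukocyte integrins (0.68), and Itgax, the CD11c subunit (1.55). Itgb1 and Itga9 of the counter-receptor list, named for their level, had means of 1799 and 191 CPM with saline and 2162 and 367 with atrasentan. Each general leukocyte marker had a lower mean, and the cells that made Itgb1 and Itga9 were not tested. Other endothelial molecules included Cd47 (0.60), F11r, the junction molecule JAM-A (0.53), and Icam2 (0.72), of which Icam2 is also an endothelial marker above, as are Pecam1, Cdh5 and Esam of this list. Selectin ligands split, 7 rising and 3 falling, with Gcnt1 (fell by 2.13) and the fucosyltransferase Fut9 (fell by 2.76) falling, and Cd34 (0.57) and the tyrosine sulfotransferase Tpst1 (0.57) rising. Cd34 and Emcn of this list are also endothelial markers. Within saline alone, Gcnt1 ran from 63.0 to 236 CPM and Fut9 from 15.3 to 94.1 CPM. Of 15 proximal tubule markers 14 fell in this comparison (edgeR), and their part in the Gcnt1 and Fut9 results was not tested. The granule list had 2 of 9 rise, Rab3d (0.71) and Angpt2 (0.76).

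With atrasentan against saline, 33.8% of all genes were called, 15.3% upward and 18.5% downward. Upstream of the adhesion molecules, 4 of 13 cytokine and receptor genes rose and none fell in this comparison. They were receptors, Tnfrsf1a for TNF (0.64, adjusted p = 0.000307, edgeR), Ifngr1 (0.45), Ifngr2 (0.49) and Il4ra (0.54). Tnf and Il1b, named after their values were seen, did not pass (adjusted p = 0.556 and 0.538). Of 16 NF-kB genes 5 rose and 1 fell, among them Traf2 (0.46), Rela (0.32) and Chuk, the IKK-alpha kinase (fell by 0.89). Of 12 other regulators 4 rose and 1 fell, including Stat6 (0.39), Irf1 (0.73) and Jun (fell by 1.04). Cytokine-induced genes were mixed, 3 rising and 4 falling of 15, with Csf1 (0.50) up and the coagulation trigger F3 (fell by 1.23) and Sod2 (fell by 0.73) down.

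Against wild type, atrasentan gave 6 of 10 counter-receptors and 9 of 16 adhesion genes rising with none falling. Of all genes, 14.7% were called upward and 14.5% downward in this comparison. Selectin ligands gave 4 rising and 3 falling, among them Spn (1.66), St3gal3 (fell by 1.39) and Podxl (fell by 0.75). Podxl is also one of the podocyte markers, of which 12 of 14 fell in this comparison. With the endothelial or leukocyte covariate, the 54 calls over all lists against wild type became 10 and 20. Calls over all genes also fell, from 2619 higher and 2571 lower to 820 and 584, and 1337 and 1240. The granule list gave 5 of 9 rising, among them Angpt2 (1.28), Rab3d (0.87) and Edn1, which encodes endothelin-1 (0.70). The counts for cytokines, NF-kB, other regulators and cytokine-induced genes were 4, 7, 5 and 6 rising and 2, 1, 0 and 2 falling, with Il4ra (1.01), Traf2 (0.38), Stat6 (0.47) and Cxcl2 (2.69) among those rising. These comparisons share the atrasentan mice. Ackr1, a marker of venules, had at most 7 reads in a library and was not tested, and Icam4 had 0 reads throughout.

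**Figure D4:**
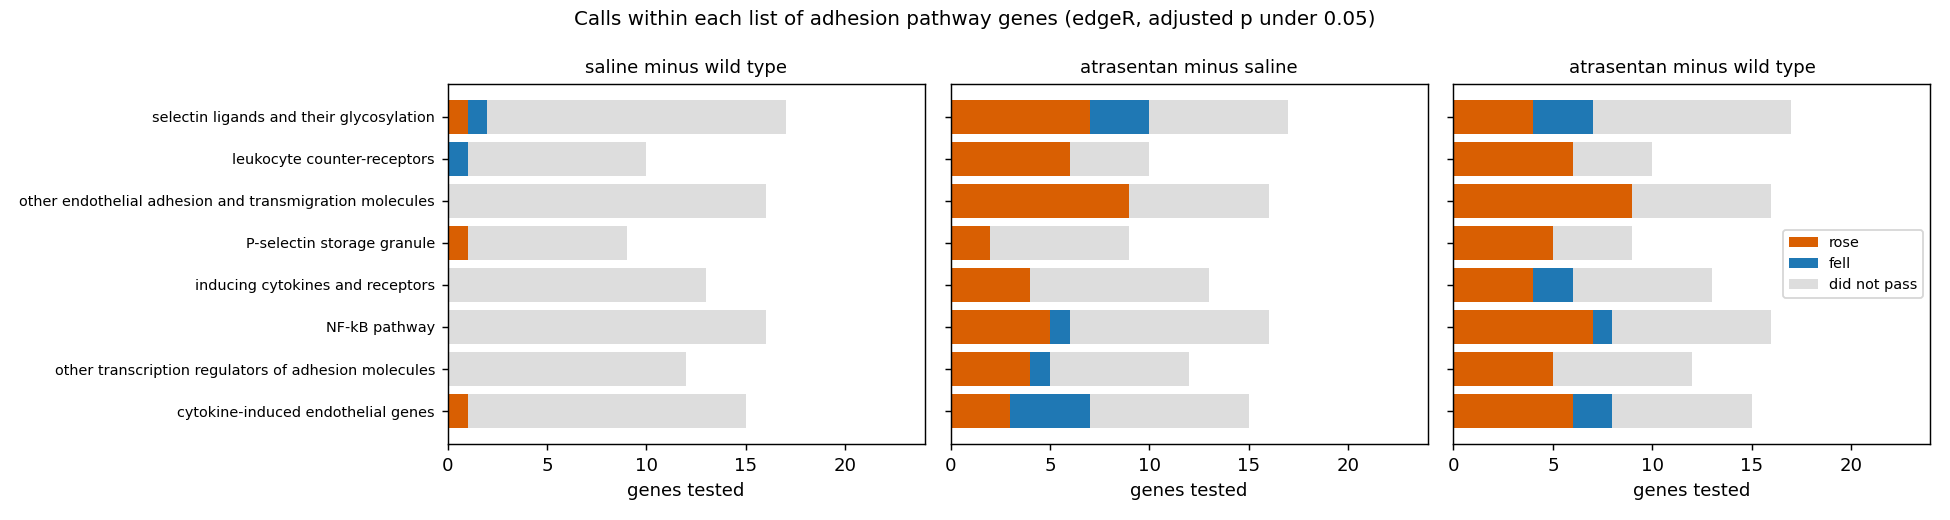
Number of tested genes (horizontal axis) of each of the 8 lists that rose, fell or did not pass (edgeR, Benjamini-Hochberg adjusted p under 0.05) in each comparison. Few genes were called between saline and wild type, and counter-receptors and other adhesion molecules had rises and no falls in both comparisons with atrasentan.

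**Figure D5:**
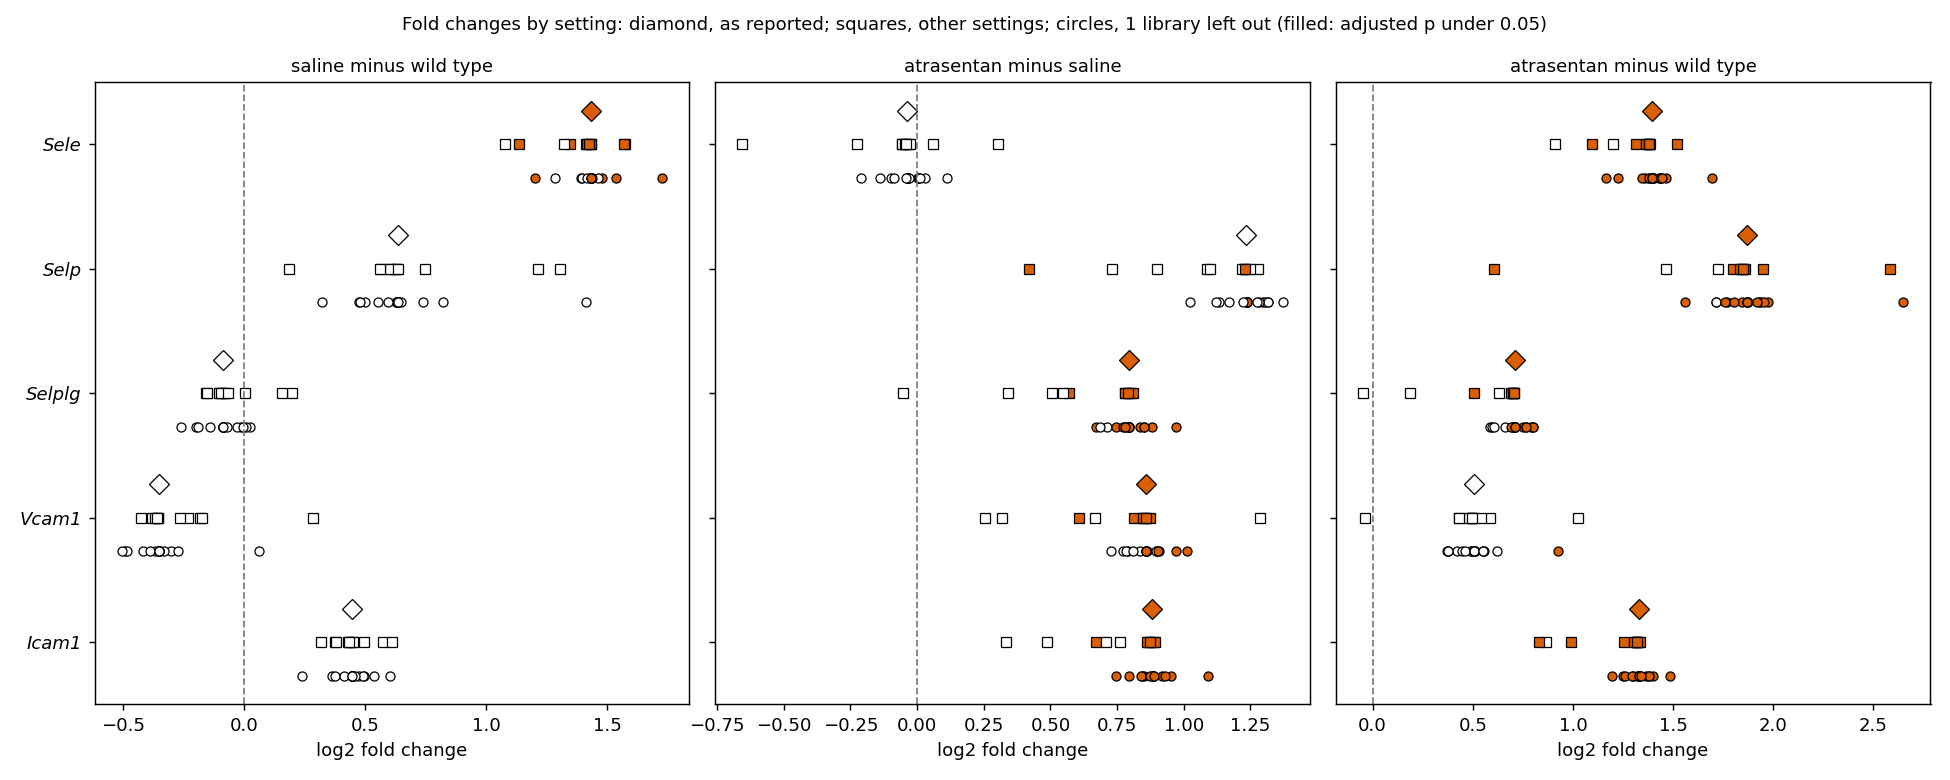
Log2 difference of each member under each setting. Diamonds are the reported values, squares other settings and circles fits with 1 library left out, and filled symbols had an adjusted p under 0.05. Sele against wild type and Icam1 with atrasentan keep their sign throughout. Selplg with atrasentan, and Vcam1 with atrasentan against wild type, cross 0 with the leukocyte covariate. Sele between atrasentan and saline, and Selplg and Vcam1 between saline and wild type, also change sign in some settings.

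Over the 17 libraries, after each group mean was subtracted, the genes most like each member were described by Pearson r among 14140 genes with a mean of at least 1 CPM. For Sele they were Dnmt3a (r = 0.87), Zfp710, Sprtn, Pou2f1 and Ddi2. For Selp, compared with 14141 genes, they were Pex6 (0.76), Fzd5, Syne3, Hey1 and Gtf2e1. For Selplg they were Nfe2 (0.91), Rac2, Cyp4f18, Cd44 and Csf2rb, of which Rac2 is one of the leukocyte markers. For Vcam1 they were Tfec (0.87), Tnfsf8, Aldh1a2, Gucy1a2 and Car11, and for Icam1 Serpina3g (0.88), Relb, Abcg1, Cx3cl1 and Tnfrsf1a. Between members, r was 0.71 for Selplg and Icam1 and 0.50 for Sele and Icam1. The libraries share their depth and composition, and these values are a description.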

How the data were processed

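Poly(A) RNA of glomeruli-enriched cortex from 17 mice was sequenced as single-end reads with a kit that does not mark strand, per the labels' protocols. The authors deposited raw read counts per gene. The submitters' processing notes name STAR, HTSeq, DESeq2, edgeR, limma and GRCm38; no version, annotation release or strand setting is given there. The authors also deposited a normalized table (log2 scale, 17338 genes), whose transform is not given; it served 1 alternative. The 5 lines that name no gene were kept out of library sizes: reads with several alignments (23.4% to 31.8%), reads outside genes and reads on more than 1 gene (2.93% to 3.37%). GENCODE M21 gave a symbol for 53274 IDs (99.8%).

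Counts of all 17 libraries were fitted in 1 edgeR 4.0.16 quasi-likelihood model (R 4.3.3) with filterByExpr, TMM scaling and Benjamini-Hochberg adjustment over 17766 genes. SE is the log2 difference divided by the square root of F. For marker means and likeness, log2 CPM used a prior count of 2. On simulated counts, the saline against wild type test recovered 31.63% of changes of log2 size 1 and 95.96% of size 2. The atrasentan against saline test recovered 60% and 97.98%, and the atrasentan against wild type test 59.18% and 100%. The simulation gave every gene the same spread and changed far fewer genes than were called with atrasentan, so recovery in the data can differ. Alternatives were DESeq2 1.42.0, limma 3.58.1, other scalings, no filter, 2-group fits, marker covariates and left-out libraries.

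Each of 41 same-group library pairs differed beyond sampling noise (chi-square per degree of freedom from 24.0 to 246.7). Replicate numbers follow accession order and pair nothing. The members and lists were chosen with earlier results of these data known. Named genes are the members, up to 4 called genes per list and comparison by smallest p, the 5 most like genes per member, tested genes within 100 kb, and marker genes at or near 0. Some genes that this rule names are not reported here.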

Additional observations from a re-analysis of the deposited data

Results flagged for a closer look

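Of 15 gene and group pairs checked for a library far from its group, 2 were flagged, and chance flags about 1 in 20. Vcam1 in wild type mouse 1 was 389.9 CPM, the highest of its group, with the next at 186 CPM. The gap was 0.748 of the range of the group. Icam1 in saline mouse 2 was 145.5 CPM, the highest of its group, with the next at 92.1 CPM and a gap of 0.712 of the range. No cause was tested for either.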

How the results depend on the processing

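Of 165 member values under settings other than a left-out library, 134 kept their direction and side of the threshold, and of 255 with 1 library left out, 224 did; for values that moved, the cause was not tested. With upper-quartile scaling, Selplg against wild type was 0.63 (adjusted p = 0.0689, edgeR), and calls there split into 1897 higher and 3153 lower, against 2619 and 2571. With only the 2 groups fitted, Selp with atrasentan against saline was 1.23, and 0.42 on the normalized values that the authors deposited. Under the endothelium covariate, atrasentan against saline gave Selplg 0.34, Vcam1 1.29 and Icam1 0.49, and against wild type Sele 1.20, Selp 1.46, Selplg 0.19 and Icam1 0.86. Genes called were then 1401 for saline against wild type, 409 for atrasentan against saline and 1404 for atrasentan against wild type, against 910, 6001 and 5190. Under the podocyte minus proximal tubule covariate, saline against wild type gave Sele 1.08, Selplg 0.20 and Vcam1 0.29 with 6 genes called, and atrasentan against saline gave Sele 0.30, Selplg 0.50, Vcam1 0.26 and Icam1 0.76 with 1084. Under the leukocyte covariate, Selplg was 0.0032 for saline against wild type, -0.052 for atrasentan against saline and -0.049 for atrasentan against wild type; Vcam1 was 0.32 and -0.037, Icam1 0.33 against saline, Sele 0.91 and Selp 1.72 against wild type, with 1380 and 2577 genes called. Without saline libraries 1 and 3, saline against wild type gave Sele 1.32, Selplg 0.16 and 54 genes, and atrasentan against saline gave Sele 0.059, Selplg 0.55, Vcam1 0.67, Icam1 0.71 and 2577 genes. Genes called between saline and wild type were 1994 in DESeq2 (1357 higher, 637 lower), 550 in limma-voom (267 higher, 283 lower) and 1430 with 2 groups. The median atrasentan against saline difference in DESeq2 was -0.12.

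Leaving out 1 library at a time, saline against wild type ranged from 1.20 to 1.73 for Sele, 0.32 to 1.41 for Selp, -0.26 to 0.026 for Selplg, -0.50 to 0.064 for Vcam1 and 0.24 to 0.60 for Icam1, with 216 to 1523 genes called. Atrasentan against saline ranged from -0.21 to 0.11 for Sele, 1.02 to 1.37 for Selp, 0.67 to 0.97 for Selplg, 0.73 to 1.01 for Vcam1 and 0.74 to 1.09 for Icam1, with 4361 to 6338 genes called. Atrasentan against wild type ranged from 1.17 to 1.69 for Sele, 1.56 to 2.65 for Selp, 0.59 to 0.80 for Selplg, 0.37 to 0.92 for Vcam1 and 1.19 to 1.49 for Icam1, with 4092 to 5622 genes called. No paired analysis was possible because the labels number no replicates. Selp rests on at most 68 reads per library, so its low values carry counting error.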

Other observations

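The share of called genes within 100 kb of the members was near that of all genes in each comparison. Of 17 tested neighbours, 1 rose between saline and wild type, 5 rose and 2 fell with atrasentan against saline, and 4 rose and 1 fell with atrasentan against wild type (edgeR, Benjamini-Hochberg). These are 5.88%, 41.2% and 29.4% of the neighbours, against 5.12%, 33.8% and 29.2% of all genes. The thiamine transporter gene Slc19a2, beyond Selp, rose with saline against wild type (0.81, adjusted p = 0.0338) and fell by 0.57 with atrasentan against saline (adjusted p = 0.0278). Beside Icam1, the sphingosine-1-phosphate receptor gene S1pr2 (0.69, adjusted p = 0.0125) and the DNA methyltransferase gene Dnmt1 (0.48, adjusted p = 0.00754) rose with atrasentan against saline. Beside Selplg, Tmem119 (0.59), Coro1c (0.28) and Sart3 (0.29) rose in that comparison, and Extl2, the tested neighbour of Vcam1, did not pass the test in any.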
